A study of Mus musculus with 8 samples.

Results

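The 4 mouse Fc gamma receptor genes and the gene of the signalling chain that the activating receptors share were followed in CD11c-positive cells of the spleen. They were chosen by name as Fcgr1, Fcgr2b, Fcgr3, Fcgr4 and Fcer1g, and all 5 were among the 13786 genes of the deposited count table. All 5 were lower in B6.SLE123 mice than in C57BL/6 mice, by 2.24-fold for Fcer1g to 5.97-fold for Fcgr3, and the activating receptors Fcgr1 and Fcgr3 fell more than the inhibitory receptor Fcgr2b. Fcgr1 lies on chromosome 3, away from the other members on chromosome 1, and its difference fell between those of its chromosome 1 relatives Fcgr3 and Fcgr4.

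RNA was sequenced from 4 C57BL/6 and 4 B6.SLE123 mice, all female, untreated and 7 weeks old. B6.SLE123 is a lupus-prone congenic strain that carries the Sle1, Sle2 and Sle3 intervals of a lupus-prone donor on a C57BL/6 background, so the strains differ over whole chromosome segments and not in a single gene. The cells were taken for CD11c, the product of Itgax, which dendritic cells carry along with some macrophages, monocytes and B cells. Counts summed to between 25761789 and 32931045 per C57BL/6 mouse and to between 25563070 and 37367094 per B6.SLE123 mouse, and p-values below measure the spread between these mice.

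Fc gamma receptors bind the constant part of IgG antibodies, mostly within immune complexes, and set off uptake, cytokine release and antigen presentation. Fcgr1 encodes the high-affinity receptor, and Fcgr3 and Fcgr4 encode activating receptors of lower affinity. The activating receptors signal through Fcer1g, a small chain with an immunoreceptor tyrosine-based activation motif (ITAM) that Src family kinases phosphorylate and that Syk then binds. Fcgr2b carries an inhibitory motif of its own (ITIM), which recruits the lipid phosphatase encoded by Inpp5d and opposes the activating receptors. In the spleen these receptors are known on macrophages, monocytes and dendritic cells, and Fcgr2b also on B cells.

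The coding sequences of the motifs that set the activating chain apart from the inhibitory receptor are shown because the comparison of activating with inhibitory genes rests on them. A search of each coding sequence (GENCODE M21 transcripts, mm10) behind its most hydrophobic stretch found an ITAM in Fcer1g, at codons 65 to 79 of 86, and an ITIM in Fcgr2b, at codons 317 to 322 of 340. Neither motif was found in that part of Fcgr1, Fcgr3 or Fcgr4. The motif is in capitals, with 3 codons on either side in lower case.
Fcer1g ITAM, chr1:171229889-171230072, minus strand, in pieces of neighbouring exons: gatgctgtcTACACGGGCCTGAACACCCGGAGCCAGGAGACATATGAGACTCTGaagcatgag
Fcgr2b ITIM, chr1:170961071-170961088, minus strand, within 1 exon: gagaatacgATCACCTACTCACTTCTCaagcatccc

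Since all members were lower, though by unequal amounts, the 80 bases that precede the start of each gene's lowest-numbered GENCODE transcript are shown. They were read from RefSeq promoter windows on GRCm38.p6, the assembly behind mm10. The annotated genes Fcgr3 and Fcgr2b reach further upstream than these transcripts, so their printed bases lie inside the gene. Capitals mark the letters GAGGAA or their reverse complement TTCCTC, the core of many sites bound by PU.1, a myeloid transcription factor. Other ETS factors share the inner GGAA, so the letters do not belong to PU.1 alone. PU.1 can also bind without them, since the C1q promoter fragment that it bound in the authors' binding assay holds neither form.
Fcgr1, chr3:96293970-96294049, minus strand: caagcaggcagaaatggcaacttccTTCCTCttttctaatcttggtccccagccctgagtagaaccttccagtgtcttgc
Fcgr3, chr1:171059404-171059483, minus strand: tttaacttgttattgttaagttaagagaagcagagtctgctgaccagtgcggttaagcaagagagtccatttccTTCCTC
Fcgr4, chr1:171018840-171018919, plus strand: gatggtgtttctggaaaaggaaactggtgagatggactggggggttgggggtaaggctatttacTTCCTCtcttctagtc
Fcgr2b, chr1:170976128-170976207, minus strand: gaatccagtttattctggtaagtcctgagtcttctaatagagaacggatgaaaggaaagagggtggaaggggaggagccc
Fcer1g, chr1:171234366-171234445, minus strand: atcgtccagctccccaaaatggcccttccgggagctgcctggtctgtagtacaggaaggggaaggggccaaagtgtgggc
Over the 250 bases before the RefSeq start sites, searched on both strands, the letters occurred in the promoters of the activating receptors Fcgr1, Fcgr3 and Fcgr4 and in neither that of Fcgr2b nor that of Fcer1g. The match began 55 bases before the start site of Fcgr1, 22 before that of Fcgr4, and 6 or 15 before the RefSeq start sites of Fcgr3. The same letters stood in 23.3% of 32851 such windows over all RefSeq start sites, so a match is common, and it is a description of letters and not of a bound site. Nor does a missing match mean that no PU.1 site is there, and the inner GGAA stands in the printed bases of Fcgr2b and Fcer1g too.

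Fcgr1 (ENSMUSG00000015947.10, chr3:96282909-96293969, minus strand), the high-affinity receptor, had 60.9, 56.8, 69.7 and 64.5 CPM (counts scaled to the depth of each mouse) in the C57BL/6 mice and 10.3, 8.22, 16.3 and 16.02 CPM in the B6.SLE123 mice. The strains did not overlap, and the lowest C57BL/6 value was 3.48 times the highest B6.SLE123 value. The means were 63.0 ± 5.48 and 12.7 ± 4.07 CPM (SD, n = 4 each), 4.99-fold lower in B6.SLE123 mice. The log2 fold change was -2.32 (SE 0.18, adjusted p = 2.34e-06, edgeR's quasi-likelihood test). B6.SLE123 mice 1 and 2 lay below mice 3 and 4, so the relative spread was wider in that strain, with a coefficient of variation of 32.0% against 8.71%.

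Fcgr3 (ENSMUSG00000059498.13, chr1:171051174-171064935, minus strand), the low-affinity activating receptor, was at 161, 147, 180 and 160 CPM in C57BL/6 mice and at 26.7, 18.8, 30.5 and 33.1 CPM in B6.SLE123 mice. It was the most abundant receptor of the C57BL/6 cells and had the largest fall of the 5 genes. The means were 162 ± 13.9 and 27.3 ± 6.22 CPM (SD, n = 4 each), and the log2 fold change was -2.58 (SE 0.14, adjusted p = 3.98e-07, edgeR). Of all genes tested, 1.63% had a lower log2 fold change than Fcgr3. Fcgr3 contains the microRNA gene Mir6546, whose reads cannot be separated from its own.

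Fcgr4 (ENSMUSG00000059089.4, chr1:171018920-171029761, plus strand), the third activating receptor, was at 79.9, 79.7, 99.1 and 93.6 CPM in C57BL/6 mice and at 19.2, 20.2, 29.8 and 24.9 CPM in B6.SLE123 mice. Its mean was 88.1 ± 9.83 against 23.5 ± 4.86 CPM (SD, n = 4 each), 3.75-fold lower, and the log2 fold change was -1.91 (SE 0.13, adjusted p = 1.04e-06, edgeR). The gene contains the small nuclear RNA gene Gm26110 on the same strand. As for Fcgr1 and Fcgr3, no value of a strain reached into the range of the other. The paper reports the opposite direction for Fcgr4 in its single-cell data. There it was higher in untreated B6.SLE123 mice than in C57BL/6 mice within a cluster named monocyte-related dendritic cells. Those were T cell-depleted splenocytes of older mice, so the cells and the age differ from those used here.

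Fcgr2b (ENSMUSG00000026656.15, chr1:170958617-170976547, minus strand), the inhibitory receptor, was at 63.9, 52.3, 55.8 and 54.8 CPM in C57BL/6 mice and at 23.7, 16.9, 21.8 and 21.1 CPM in B6.SLE123 mice. Its fall was the smallest among the receptors, from 56.7 ± 5.03 to 20.9 ± 2.89 CPM (SD, n = 4 each), which is 2.72-fold, and the log2 fold change was -1.44 (SE 0.10, adjusted p = 1.01e-06, edgeR). The strains again did not overlap, and the lowest C57BL/6 value was 2.21 times the highest B6.SLE123 value. Fcgr2b overlaps the antisense gene Gm38204 on the opposite strand, and whether counting used the strand is not given in the sources used here.

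Fcer1g (ENSMUSG00000058715.11, chr1:171229572-171234365, minus strand), the signalling chain, was at 313, 290, 324 and 334 CPM in C57BL/6 mice and at 136, 124, 141 and 161 CPM in B6.SLE123 mice. It was the most abundant of the 5 genes in both strains and fell least, from 315 ± 18.8 to 140 ± 15.3 CPM (SD, n = 4 each), and the log2 fold change was -1.17 (SE 0.08, adjusted p = 7.27e-07, edgeR). Of all genes tested, 7.58% had a lower log2 fold change. An exact two-sided permutation test on log2 CPM gave p = 0.0286 for each of the 5 genes, the smallest that 4 mice against 4 allow.

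**Figure D1:**
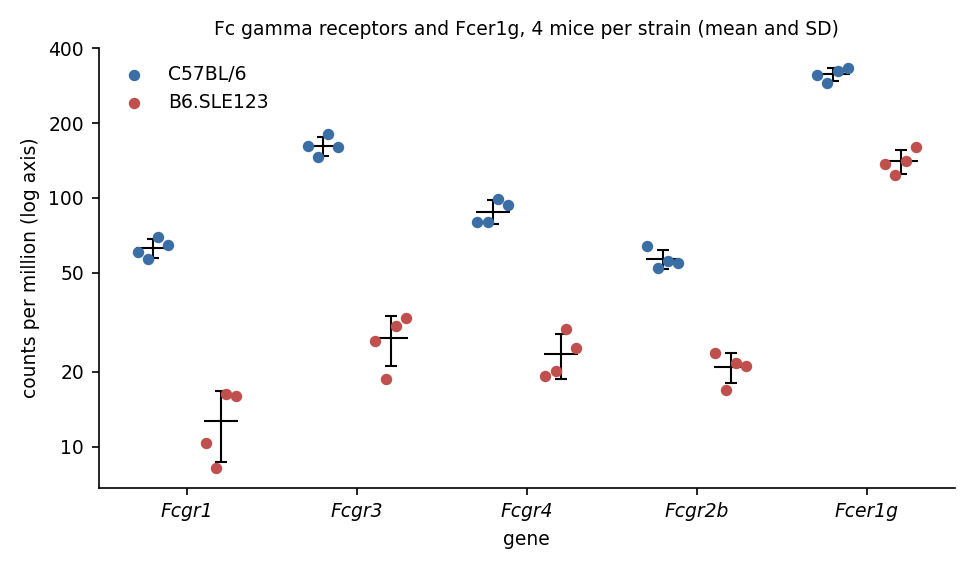
CPM (log axis) of Fcgr1, Fcgr3, Fcgr4, Fcgr2b and Fcer1g, with 1 point per mouse, blue for C57BL/6 and red for B6.SLE123, and bars for the mean and SD of 4 mice. No red point reaches a blue point of the same gene, and the gap is widest for Fcgr3 and narrowest for Fcer1g.

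All 5 genes therefore passed an adjusted p below 0.05 as lower in B6.SLE123 mice, where 26.6% of all genes did so and 26.7% passed as higher. All 5 were also more than 2-fold lower, as were 8.29% of all genes, and for all 5 the B6.SLE123 values lay entirely under the C57BL/6 values, as they did for 24.5% of all genes. RNA of a whole cell preparation was measured, so fewer cells of a type that carries these receptors and less receptor RNA per cell cannot be told apart.

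**Figure D2:**
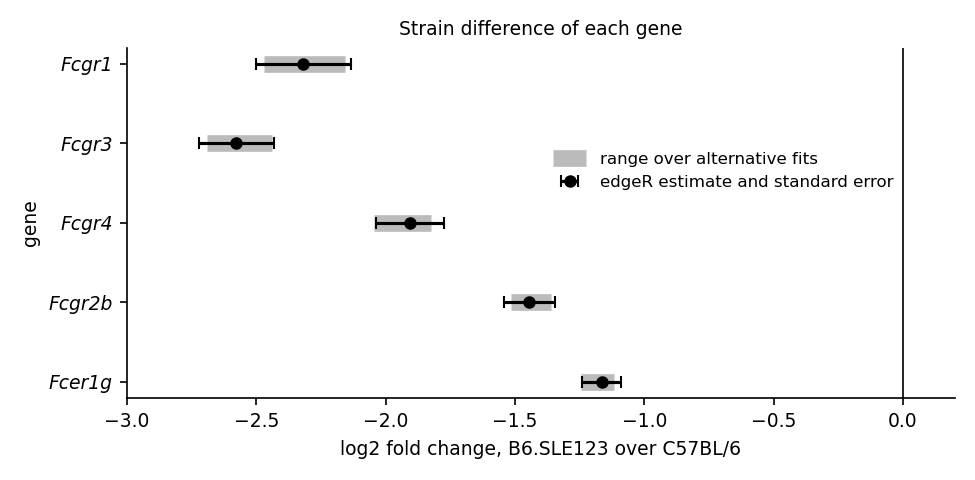
Log2 fold change, B6.SLE123 over C57BL/6, of each gene with its standard error (point and whisker), over a grey bar that spans the values from 16 alternative fits. The genes run from -2.58 for Fcgr3 to -1.17 for Fcer1g, and no grey bar comes near 0.

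The activating receptors were then set against Fcgr2b within each mouse, where the ratio does not depend on library size. Fcgr3 was 2.52, 2.80, 3.23 and 2.91 times Fcgr2b in the CPM of the C57BL/6 mice and 1.13, 1.11, 1.40 and 1.56 times in the B6.SLE123 mice. The ratio was lower in every B6.SLE123 mouse than in any C57BL/6 mouse, by 1.15 on the log2 scale on average (exact permutation test, p = 0.0286, and 0.0408 after Benjamini-Hochberg adjustment over the 10 pairs of members). Fcgr1 was at 0.952, 1.09, 1.25 and 1.18 times Fcgr2b in C57BL/6 mice and at 0.437, 0.488, 0.749 and 0.758 times in B6.SLE123 mice, a log2 difference of -0.91 that also had no overlap (exact permutation p = 0.0286, adjusted 0.0408). Fcgr4 was different in that the strains overlapped. It was at 1.25, 1.52, 1.77 and 1.71 times Fcgr2b in C57BL/6 mice and at 0.809, 1.20, 1.37 and 1.18 times in B6.SLE123 mice, and the log2 difference of -0.47 did not pass (exact permutation p = 0.0571, adjusted 0.0635).

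The levels of different genes were compared per length, as counts scaled by depth and by exon length (RPKM). Summed over Fcgr1, Fcgr3 and Fcgr4, the activating receptors were at 16.3, 18.8, 21.7 and 20.2 times the RPKM of Fcgr2b in C57BL/6 mice and at 8.46, 10.3, 12.6 and 12.3 times in B6.SLE123 mice. The mean ratio was 19.3 ± 2.32 against 10.9 ± 1.95 (SD, n = 4 each), a log2 difference of -0.83 that is given as a description without a test. It was -0.86 with the length of the longest transcript and -0.88 with CPM in place of RPKM. The ratio itself depended on the length used. Its means were 13.5 and 7.47 in C57BL/6 and B6.SLE123 mice with the longest transcript, and 5.55 and 3.05 with CPM. Activating receptor RNA thus still exceeded that of the inhibitory receptor in every B6.SLE123 mouse.

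**Figure D3:**
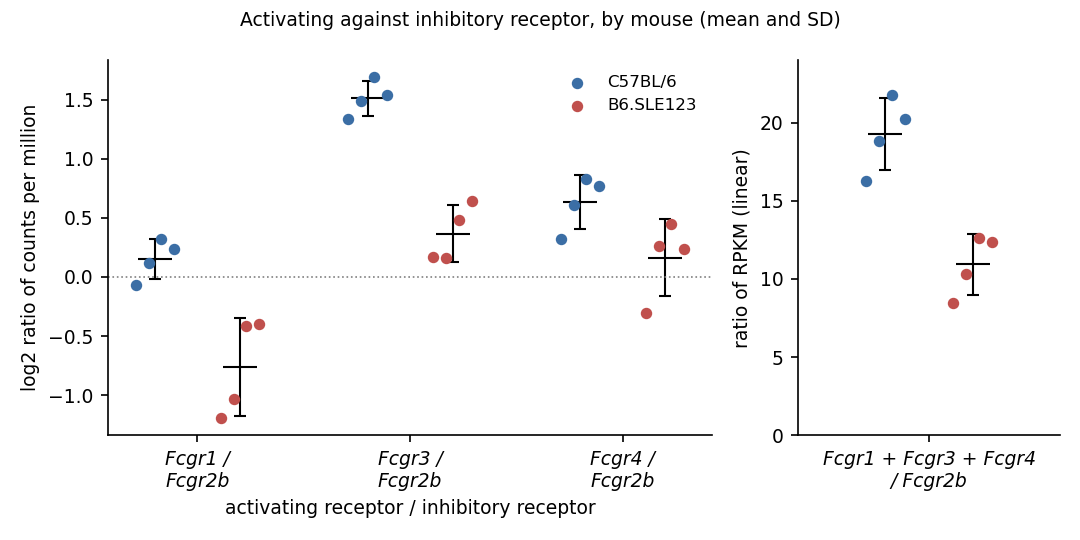
Left, log2 ratio of the CPM of Fcgr1, Fcgr3 and Fcgr4 to that of Fcgr2b by mouse; right, ratio of the summed RPKM of the activating receptors to that of Fcgr2b on a linear axis from 0, with the mean and SD of 4 mice. The strains are separate for Fcgr1 and Fcgr3 and for the sum, at 16.3 to 21.7 against 8.46 to 12.6, and overlap for Fcgr4.

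The mix of receptors changed with these unequal falls. Fcgr3 made up 47.2% ± 1.15 of the summed receptor RPKM in C57BL/6 mice and 36.4% ± 3.47 in B6.SLE123 mice, and Fcgr4 made up 35.5% ± 1.59 and 43.8% ± 4.46 (SD, n = 4 each). The share of Fcgr2b was 4.99% ± 0.60 and 8.55% ± 1.501, and that of Fcgr1 was 12.3% ± 0.06 and 11.2% ± 1.49, where the ranges of the strains overlapped. In C57BL/6 mice the order of RPKM was Fcer1g at 360 ± 21.5, Fcgr3 at 93.3 ± 8.01, Fcgr4 at 70.1 ± 7.82, Fcgr1 at 24.3 ± 2.12 and Fcgr2b at 9.80 ± 0.87, and no neighbours in that order overlapped. In B6.SLE123 mice Fcer1g stood at 161 ± 17.6 RPKM, and the next pairs overlapped, Fcgr4 at 18.7 ± 3.87 with Fcgr3 at 15.7 ± 3.59, and Fcgr1 at 4.91 ± 1.57 with Fcgr2b at 3.604 ± 0.50. The order within these pairs turned when the longest transcript gave the length, with Fcgr3 at 20.2 and Fcgr2b at 5.89 RPKM.

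Fcer1g fell less than each of the activating receptors that signal through it. Against Fcer1g, the log2 ratio of Fcgr3 was lower in B6.SLE123 mice by 1.43, that of Fcgr1 by 1.19 and that of Fcgr4 by 0.75 (exact permutation p = 0.0286 and adjusted p = 0.0408 for each, no overlap). Fcgr2b, which does not need the chain, differed from it by -0.28 with overlapping strains (exact permutation p = 0.0857). The chain's RPKM was 1.92 ± 0.11 times the summed RPKM of the activating receptors in C57BL/6 mice and 4.17 ± 0.58 times in B6.SLE123 mice (SD, n = 4 each).

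Fcgr1 was compared with the chromosome 1 members in the same way. It fell more than Fcgr4 by 0.44 on the log2 scale (exact permutation p = 0.0286, adjusted 0.0408), besides its larger fall than Fcgr2b and Fcer1g given above. Against Fcgr3, Fcgr1 was 0.378, 0.387, 0.386 and 0.404 times in C57BL/6 mice and 0.388, 0.438, 0.535 and 0.485 times in B6.SLE123 mice. The strains overlapped and the log2 difference of 0.24 did not pass (exact permutation p = 0.0571, adjusted 0.0635). The chromosome 1 members also differed among themselves, with Fcgr3 lower against Fcgr4 by 0.68 and against Fcgr2b by 1.15 (exact permutation p = 0.0286, adjusted 0.0408 for each).

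Fcgr2b and Fcgr3 are near copies of each other over part of their length. Their coding sequences were identical at 87.5% of aligned bases, with a longest shared run of 129 bases, and no other pair of receptors was above 69.9%. Of all stretches of 75 bases, 7.38% of those in the Fcgr3 transcript and 2.71% of those in the Fcgr2b transcript occurred in the other gene, and none was shared by any other pair of members. The shares for Fcgr3 and Fcgr2b were 12.8% and 4.75% at 50 bases and 3.53% and 1.28% at 100 bases. A read from a shared stretch cannot be placed in a single gene. The counts of Fcgr2b and Fcgr3 are therefore uncertain, by an amount that was not measured. The read length is not given in the sources used here.

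The genes around the receptors were counted at the chromosome 1 and the chromosome 3 locus. Of 50 other genes of the table within 1 Mb of the chromosome 1 members, 27 were lower and 8 higher at an adjusted p below 0.05 (edgeR), with a median log2 fold change of -0.22. Of 47 genes within 1 Mb of Fcgr1, 11 were lower and 9 higher, with a median of 0.01, near the -0.002 over all genes. The share called lower was 54.0% around the chromosome 1 members and 23.4% around Fcgr1, beside 26.6% of all genes. The log2 fold change of Fcgr1, -2.32, was below that of each of its 47 neighbours, while several neighbours of the chromosome 1 members were below them. The chromosome 1 locus lies in the region known as Sle1, and reads of both strains were aligned to a genome from C57BL/6. Whether donor sequence changed the alignment of reads there was not tested.

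Around the chromosome 1 members, 12 neighbours were more than 2-fold lower and 2 more than 2-fold higher. Fcrlb and Fcrla, Fc receptor-like genes next to Fcgr2b, were both among the former. Fcrlb had 131 to 225 counts in C57BL/6 mice and 1 to 6 in B6.SLE123 mice, and Fcrla fell by 1.02 on the log2 scale (adjusted p = 6.27e-05, edgeR). Cfap126, the next gene after Fcgr3, fell by 1.53 (adjusted p = 2.07e-05). F11r, a junctional adhesion molecule, fell by 1.45, and Cd84, a SLAM family receptor, fell by 1.38 (adjusted p = 1.31e-05 and 6.08e-06, edgeR). The log2 fold changes of Gm7694, Nos1ap and Gm10521 were -2.79, -2.22 and -2.02. Spata46, Olfml2b and Ddr2 were also lower, on at most 17 counts in any mouse. Itln1 had at most 1 count in C57BL/6 mice and 430 to 582 in B6.SLE123 mice, and Sh2d1b2 had 0 to 2 against 55 to 89. Apoa2, next to Fcer1g, had a log2 fold change of 0.26 that did not pass (adjusted p = 0.390).

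Next to Fcgr1, the histone gene H4c14 fell by 0.99 on the log2 scale on 17 to 51 counts (adjusted p = 0.00102, edgeR), and Txnip, on the other side, fell by 0.39 (adjusted p = 0.00251). Anxa9 was the single neighbour of Fcgr1 that changed more than 2-fold, with a log2 fold change of -1.94 (adjusted p = 2.39e-06).

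**Figure D4:**
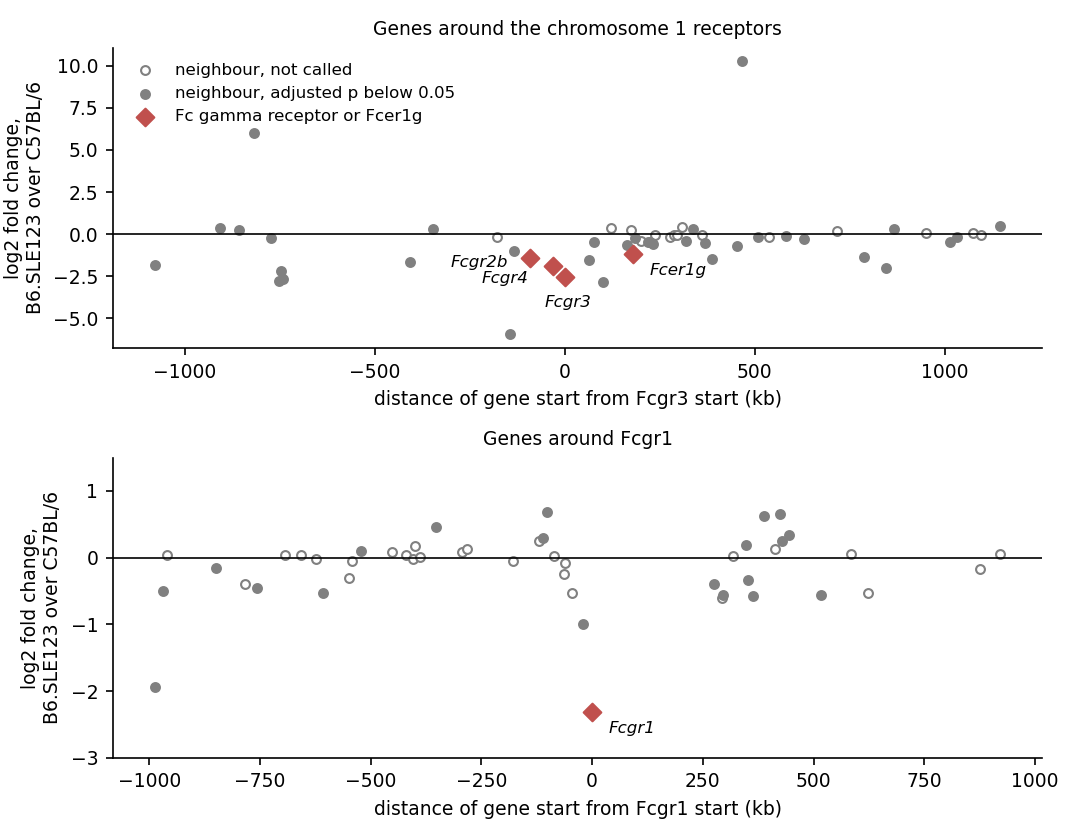
Log2 fold change of every gene of the table within 1 Mb against the distance of its start in kilobases, above from Fcgr3 for the chromosome 1 members and below from Fcgr1; filled grey points passed an adjusted p below 0.05 and red diamonds are the members. Around Fcgr1 a single neighbour is more than 2-fold lower, against 12 around the chromosome 1 members.

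The rest of the Fc receptor pathway was read against all genes of the table, of which 26.6% were lower and 26.7% higher, with a median log2 fold change of -0.002. The 7 lists of pathway and related receptor genes held 102 different genes of the table, of which 37 (36.3%) were lower and 32 (31.4%) higher at an adjusted p below 0.05, with a median of -0.03. Both shares were above those of all genes, and the difference was not tested, so the counts below describe the lists and set none of them apart. Among 9 kinases of the Src and Syk families, 4 were lower and 1 higher, with a median of -0.24. Syk, which binds the phosphorylated chain, went from 644 ± 46.4 to 486 ± 25.5 CPM (SD, n = 4 each), a log2 fold change of -0.41 (adjusted p = 0.000176, edgeR). Lyn, a kinase that phosphorylates these motifs, had a log2 fold change of -0.32, Fgr of -0.36 and Fyn of -0.24. The exception was Yes1, which was higher by 1.03 but had a mean of only 0.342 and 0.718 CPM.

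Of 25 adaptors, lipid enzymes and exchange factors, 9 were lower and 10 higher, with a median of 0.08. Blnk, an adaptor best known from B cells, fell by 1.22 on the log2 scale (adjusted p = 3.67e-05, edgeR) and Lat by 0.72 on a mean of 5.45 and 3.33 CPM (adjusted p = 0.0165). The abundant Pik3cd, a catalytic subunit of phosphoinositide 3-kinase, was at 738 ± 7.67 and 731 ± 51.7 CPM (SD, n = 4 each, adjusted p = 0.848), while Prkcd fell by 0.15 (adjusted p = 0.00594).

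On the inhibitory side, 4 of 12 phosphatases and adaptors were lower and 5 higher, and a median of -0.005. Inpp5d, the phosphatase that the ITIM recruits, was higher by 0.13 on the log2 scale (adjusted p = 0.0240, edgeR), whereas its relative Inppl1 was lower by 0.66 (adjusted p = 2.48e-06). The adaptors Dok2 and Dok3 both fell by 1.33, and Csk by 0.11. Ptpn11, Dok1, Cbl and Cblb were higher by 0.33, 0.32, 0.18 and 0.50, and the abundant Ptpn6 had a log2 fold change of -0.09 (adjusted p = 0.151).

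Of 27 phagocytosis and oxidase genes, 6 were lower and 13 higher, with a median of 0.09. The largest difference was in Myo10, a motor of phagocytic cups, which fell by 1.97 on the log2 scale (adjusted p = 1.31e-06, edgeR). The abundant actin regulators Actr3 and Cfl1 rose by 0.21 and 0.28 (adjusted p = 0.00123 and 0.000247).

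The list of other Fc receptors and related genes included several that fell. Of 13 measured, B2m among them, 7 were lower and 2 higher, with a median of -0.49. The lower ones included the neighbours Fcrla and Fcrlb given above. Fcgrt, the neonatal Fc receptor that recycles IgG, went from 252 ± 30.8 to 105 ± 12.4 CPM (SD, n = 4 each), a log2 fold change of -1.26 (adjusted p = 2.34e-06, edgeR), while its partner B2m was at 2054 ± 128 and 2054 ± 51.3 CPM. Pigr and Fcrl5 were the genes that rose, by 1.11 and 0.82, Pigr from a mean of 0.795 CPM.

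Fcer1g also serves receptors that do not bind antibodies. Of 8 such receptors measured, 3 were lower and 1 higher, with a median of -0.50. Clec4n, the fungal receptor Dectin-2, went from 206 ± 27.0 to 38.5 ± 10.05 CPM (SD, n = 4 each), a log2 fold change of -2.42 (adjusted p = 1.04e-06, edgeR), and Pira2, a paired immunoglobulin-like receptor, fell by 2.87 (adjusted p = 7.63e-07). Clec4d fell by 1.74 on a mean of 1.93 and 0.578 CPM, and Lilra6 rose by 0.90. Pira2 and Lilra6 belong to a family of near copies, so the placement of their reads is uncertain.

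Among 8 other signalling chains, 4 were lower and none was higher, with a median of -0.52. Tyrobp, another ITAM chain of myeloid receptors, went from 448 ± 10.4 to 296 ± 24.4 CPM (SD, n = 4 each), a log2 fold change of -0.60 (adjusted p = 8.19e-06, edgeR). Hcst had a log2 fold change of -0.60, and the B cell chains Cd79a and Cd79b had -0.56 and -0.68.

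**Figure D5:**
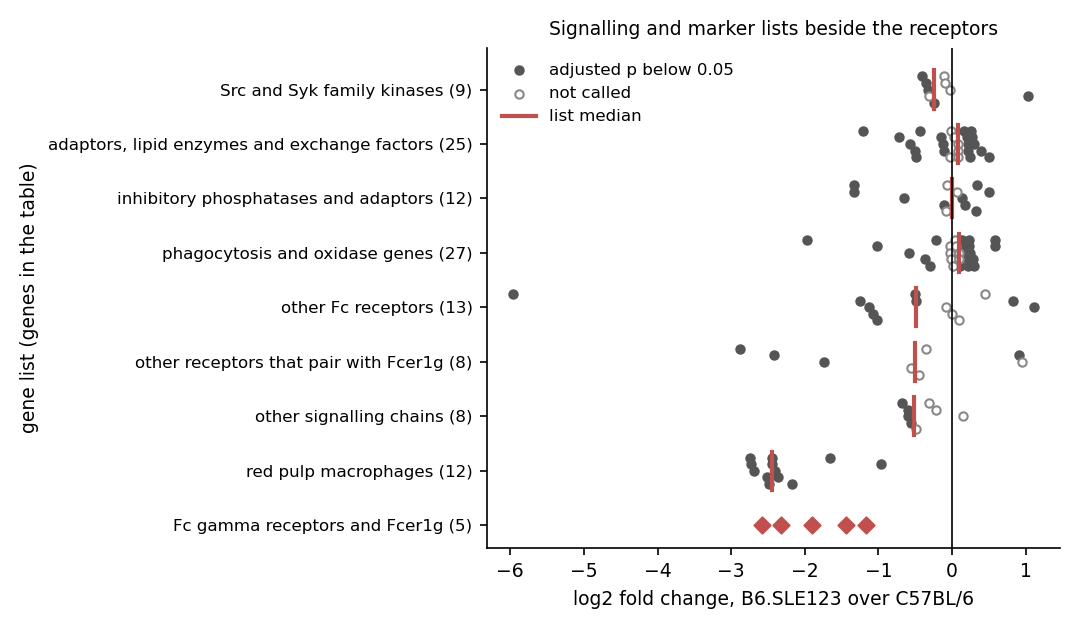
Log2 fold change, B6.SLE123 over C57BL/6, of each gene in the 7 pathway and family lists and in the red pulp macrophage list, with 1 point per gene, filled where the adjusted p was below 0.05, a red bar at the list median and the Fc gamma receptors with Fcer1g as red diamonds. The members lie between -2.58 and -1.17 and the red pulp macrophage genes have a median of -2.45, while the medians of the kinase, adaptor, inhibitory and phagocytosis lists lie between -0.24 and 0.09.

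The markers of cell types moved with the strains too. The labels call the cells dendritic, and all 5 general dendritic cell markers were higher in B6.SLE123 mice, Itgax by 0.22 and Flt3 by 0.39 on the log2 scale, with a summed level of 17017 to 19949 CPM in C57BL/6 mice and 21013 to 21837 CPM in B6.SLE123 mice. All 12 red pulp macrophage markers were lower, with a median of -2.45 on the log2 scale, and summed to 12895 to 16199 against 1920 to 3717 CPM. Vcam1 and Csf1r, the most abundant of them, had log2 fold changes of -2.45 and -2.18. All 4 marginal zone macrophage markers were lower, at 319 to 401 against 56.9 to 105 CPM in sum, as were 4 of 7 of patrolling monocytes, at 1230 to 1384 against 668 to 887 CPM. The patrolling monocyte sum was mostly Pou2f2 (345 and 178 CPM on average), Treml4 (335 and 161 CPM) and Nr4a1 (288 and 157 CPM). Ace, Cx3cr1 and Spn did not pass. Of 5 classical monocyte markers only Vcan was lower, from a mean of 1.62 CPM, and the sums overlapped at 68.7 to 84.3 and 49.3 to 75.2 CPM. Of 10 B cell markers 8 were lower, with a median of -0.64, and summed to 547 to 653 against 377 to 467 CPM. Of 10 neutrophil markers 4 were lower and 3 higher, and the sum of 132 to 145 against 38.1 to 61.4 CPM was mostly Csf3r (76.5 and 25.2 CPM on average) and Mmp9 (47.0 and 10.6 CPM). S100a8 and S100a9 did not pass, Ngp, Camp and Ltf were higher, and Ly6g, which defines these cells, was not among the genes of the table. Type 1 conventional dendritic cell markers were higher for 8 of 10 and lower for 1 (3657 to 4215 against 5591 to 7463 CPM), and those of type 2 were lower for 3 of 7 and higher for none. The type 2 sum, 2059 to 2231 against 1179 to 1455 CPM, was mostly Sirpa, at 1784 and 950.5 CPM on average. Of 8 erythroid markers 7 were lower, at 79.1 to 265 against 8.67 to 39.0 CPM, and of 8 T cell markers 1 was lower and 2 were higher. The T cell sum, 350 to 409 against 418 to 550 CPM, was mostly Cd4 (258 and 296 CPM, not passing) and Tcf7 (81.8 and 138 CPM), while Cd3d, Cd3e and Cd3g had log2 fold changes of -0.32, -0.49 and -0.21 that did not pass. The sums of plasmacytoid dendritic cell, plasma cell and NK cell markers overlapped between the strains, with 2 of 7, 2 of 6 and 2 of 7 lower and 2, 2 and 0 higher. The 2 mast cell and basophil markers measured summed to under 1 CPM in every mouse. The part of these cell types in the receptor differences was not tested.

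Since red pulp macrophages are known to carry these receptors, each member was also divided by the summed CPM of their markers in each mouse. The log2 ratio of Fcgr1 to that sum differed between the strains by 0.01 (exact permutation p = 0.886), with overlapping values of -7.87 to -7.76 in C57BL/6 mice and -7.91 to -7.64 in B6.SLE123 mice. Fcgr3 was lower against the sum by 0.23, and Fcgr4, Fcgr2b and Fcer1g were higher by 0.45, 0.92 and 1.20 (exact permutation p = 0.0286 for each, and 0.0357 after adjustment over the 5 members). The difference of Fcgr4 did not pass against Csf1r alone, at 0.29 (exact permutation test, adjusted p = 0.114), or against the mean of the log2 CPM of the list, at 0.43 (exact permutation test, adjusted p = 0.0714). The difference of Fcgr1 turned to -0.15 against Csf1r alone (exact permutation test, adjusted p = 0.0714) and to -0.014 against the mean of the log2 CPM (exact permutation test, adjusted p = 0.8). Its direction thus depended on the measure, and none of these differences passed. Fcgr2b and Fcer1g fell by less than the macrophage sum. So did some genes of the list itself, with log2 fold changes of -0.96 for Cd68 and -1.66 for Adgre1. The other genes of the list lay between -2.75 and -2.18.

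The genes whose pattern over the 8 mice was most like that of each member were found by the root mean square difference of log2 CPM, centred on each gene's mean, among genes with a mean of at least 100 counts. For Fcgr1 they were C1qc, Ctsf and C1qa, at differences of 0.05, 0.05 and 0.06 on the log2 scale. C1qc and C1qa encode chains of the complement component C1q, and their log2 fold changes were -2.35 and -2.26. For Fcgr3 they were Tppp, Garnl3 and Ksr2 (0.06, 0.07 and 0.07), and for Fcgr4 they were Tbxas1, Il18 and March3 (0.08, 0.10 and 0.10).

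The inhibitory receptor and the chain were most like other genes. For Fcgr2b they were Tdrkh, Pdlim4 and Tmtc1 (0.08, 0.09 and 0.09). For Fcer1g they were Btbd19, Bank1 and Cpq (0.05, 0.06 and 0.07), of which Bank1 encodes a B cell scaffold protein. Among the members, Fcgr1 and Fcgr3 were the closest pair, at 0.17, followed by Fcgr2b and Fcer1g at 0.20, and Fcgr3 and Fcer1g were the farthest apart, at 0.73. The likeness is a description over mice that fall into separate strains, and any gene with a similar strain difference would score well.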

How the data were processed

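RNA of CD11c-positive splenocytes from 8 mice was analysed. Libraries were made with a stranded NEB mRNA kit. For adapter trimming the authors used cutadapt, for alignment STAR with the mm10 build, and for counting featureCounts (versions and the strand setting are not given in the sources used here). The deposited table holds raw counts, not normalized, for 13786 genes, and the larger strain median is at least 5 counts for every gene. It also holds the authors' DESeq2 comparison, which was not used: normalized signal, log2 fold change and its error, fold ratio, test score, and raw and adjusted p-value. Strains were taken from the sample names, since the genotype labels number the strain upward from mouse to mouse. For 21 genes a date stood in place of the symbol, which was looked up by identifier.

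Counts of all genes, without a filter, were scaled by TMM. The strains were compared with edgeR 4.0.16 in R 4.3.3 (quasi-likelihood F test, Benjamini-Hochberg adjustment, threshold 0.05); standard errors were derived from the F statistic. CPM use TMM library sizes, and log2 CPM a prior count of 2. RPKM use exon lengths from GENCODE M21, which gives 13415 of the genes the same coordinates. Per-mouse values and ratios were compared by exact two-sided permutation tests in scipy 1.17.1. On simulated counts of 13786 genes for this comparison, 84% of 50 genes changed 1.5-fold, 94% of 50 changed 2-fold and 100% of those changed 3-fold or 4-fold were recovered, with 13 false calls among 202. The 200 changed genes all had a mean of at least 50 counts, so recovery at lower counts was not tested. Far fewer genes were changed there than the 7356 called in the data. Replicates of a strain differed by more than sampling noise (chi-square per degree of freedom between 4.87 and 18.3). The members and lists were chosen with earlier results of these data known. The genes named were the members, the 2 most abundant and the 2 most changed genes of each list (mean of at least 100 counts), the nearest neighbours, neighbours changed more than 2-fold, and the 3 genes most like each member. Fyn, Yes1, Inpp5d, Inppl1, Csk, Ptpn11, Dok1, Cblb, Pigr, Fcrl5, Clec4d, Lilra6, Cd79a, Vcan, Nr4a1, Ace, Cx3cr1, Spn, S100a8, S100a9, Ngp, Camp, Ltf, Cd3d, Cd3e, Cd3g, Itgax, Cd68 and Adgre1 were named after their values were seen. Some genes that these rules pick are not reported here. Single-cell and human data were not analysed here. Alternatives were other scaling factors, library totals, a minimum of 10 counts in every sample, DESeq2 1.42.0, limma-voom, the replicate number as a block, other windows, lengths, thresholds and prior counts, and leaving out each mouse.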

Additional observations from a re-analysis of the deposited data

Results flagged for a closer look

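In C57BL/6 mouse 3, the log2 ratio of Fcgr1 to Fcer1g was -2.21, away from the other mice of the strain, whose values were -2.36, -2.35 and -2.37. It was the single value set apart by Dixon's criterion among 42 groups of 4 values, where chance would give about 2.1. The strain difference of this ratio, -1.19, lay between -1.33 and -1.06 when each mouse was left out in turn.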

How the results depend on the processing

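Of 456 alternative values, 439 kept their direction, call or count within the limits set. Some of these could not change, since the replicate block leaves the mean difference of each ratio between members as it was. Ratios without a mouse were read by direction and size alone, with no new test. All 5 members were lower at an adjusted p below 0.05 in every one of the 16 alternative fits (other scaling, filter, tool, replicate block or a mouse left out), with log2 fold changes of -2.47 to -2.16 for Fcgr1, -2.69 to -2.44 for Fcgr3, -2.05 to -1.83 for Fcgr4, -1.52 to -1.36 for Fcgr2b and -1.25 to -1.12 for Fcer1g, and a largest adjusted p of 2.19e-05. The difference of Fcgr1 against the red pulp macrophage sum, 0.01, turned to -0.15 against Csf1r alone, to -0.014 against the mean of log2 CPM, to -0.0011 without C57BL/6 mouse 1 and to -0.049 without B6.SLE123 mouse 3, and lay between -0.049 and 0.042 when each mouse was left out. Fcgr4 against the macrophage markers no longer passed against Csf1r (0.29) or the mean of log2 CPM (0.43). With the longest transcript as length, RPKM in C57BL/6 and B6.SLE123 mice moved to 461 and 206 for Fcer1g, 120.2 and 20.2 for Fcgr3, and 16.01 and 5.89 for Fcgr2b. In windows of 0.5 and 2 Mb around Fcgr1, 5 of 29 and 23 of 85 genes were lower (17.2% and 27.1%). In the same windows 8 and 15 were higher (27.6% and 17.6%). Within 0.5 Mb of the chromosome 1 members 3 of 32 were higher (9.4%). The windows hold fewer or more genes, and the shares moved as well as the counts. Counting only neighbours with a mean of at least 100 counts, an alternative chosen after seeing the data, left 23 lower and 7 higher around the chromosome 1 members and 10 lower and 8 higher around Fcgr1.

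The correlation of the deviations of same-numbered mice was 0.08 to 0.23, not above 0.1 in every pair, so the numbers were not taken to pair the mice, and 5 of the 8 mice correlated best with the mouse of their own number. The replicate block gave 7183 called genes against 7356 and 8 against 4 among the receptors that pair with Fcer1g. For ratios within same-numbered mice the exact sign-flip test cannot go below p = 0.125, and without a mouse the exact test cannot go below 0.0571, so neither bears on those calls. Without each mouse in turn, 6496 to 7013 genes were called.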
